A study of Homo sapiens with 17 samples.

Results

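The 78 genes described here encode proteins named for the mitochondrial ribosome. They are the rows of the deposited table whose symbol starts with MRPL (49 genes) or MRPS (29 genes) followed by a digit, out of 16884 genes in the table. RNA was taken from the wild-type human cell line BEAS-2B, which derives from bronchial epithelium immortalised with a viral oncogene and was grown in bronchial epithelial medium (BEGM). All cultures received 24 h in that medium with acetaldehyde at 0 mM (control, 6 libraries), 10 mM (6 libraries) or 16 mM (5 libraries). Acetaldehyde is a reactive aldehyde made from ethanol and found in tobacco smoke. The labels do not say whether libraries came from separate cultures, so each p-value sets a change against the spread among these libraries alone, which may be technical. In bulk RNA of a culture, a smaller share of cells of 1 kind and less RNA per cell cannot be told apart.

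Mitochondria keep their own ribosome, which translates the few messenger RNAs of the mitochondrial genome, all of them for subunits of the oxidative phosphorylation complexes. Its ribosomal RNAs come from the mitochondrial genome, but every one of its proteins is encoded in the nucleus, made in the cytosol and imported. Part of the proteins descend from bacterial ribosomal proteins, and the others were added during the evolution of mitochondria. In the classes used here, 51 of the 78 belong to the large subunit (30 with a bacterial counterpart, 21 specific to mitochondria) and 26 to the small subunit (16 and 10). MRPS18A and MRPS30 carry small-subunit symbols but sit in the large subunit, and MRPS36 is a component of the 2-oxoglutarate dehydrogenase complex rather than of the ribosome.

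Total estimated counts lay between 15952673 and 18809242 per library. Among 8 epithelial markers in the table, 4 reached 1 FPKM (fragments scaled for transcript length and library depth), among them KRT8 and KRT18, while the defining epithelial genes EPCAM and CDH1 were at or near 0 in all groups. Leukocyte and endothelial markers summed to at most 1.92 FPKM in any library of the 16 used for tests. The sum of 8 mesenchymal markers was 597 to 816 FPKM at 16 mM and 732 to 943 FPKM at 10 mM, against 958 to 1612 FPKM in control. Most of it was VIM and FN1, with means of 773 and 503 FPKM in control and 554 and 133 FPKM at 16 mM. Epithelial markers summed to 874 to 1675 FPKM in control, 1116 to 1358 FPKM at 10 mM and 1197 to 1315 FPKM at 16 mM. The part of these markers in the results was not tested. The 10 mM library 1 stood apart: its correlation with the other 10 mM libraries over log2 scaled counts was 0.823 to 0.853, and short transcripts were raised in it. It is shown on its own, and the tests below use the other 16 libraries unless it is named. The 16 libraries also formed close sets that no label names. Control 1 to 3, 10 mM libraries 2 to 4 and 16 mM libraries 1 to 3 were nearer to each other within their groups (r of 0.9909 or more) than to the other libraries of the group (r of 0.9887 or less), and control 4 to 6, 10 mM libraries 5 and 6 and 16 mM libraries 4 and 5 likewise. These are called the first and the second set below. Values within each of them are given for the summed levels, for the counts of all members called and for some of the named genes. Where none are given for a gene, the sets may still differ. If libraries of a set share a culture or preparation, p-values over single libraries are too small.

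The summed RNA level of these genes overlapped between the groups over all 16 libraries. Within the close sets it did not, apart from 16 mM and control in the second set. Summed over the 78 genes, levels were 4333 ± 134 FPKM in control (SD, n = 6), 4261 ± 279 FPKM at 10 mM (n = 5) and 4235 ± 34 FPKM at 16 mM (n = 5). In the first set the sum was 4381 to 4505 FPKM in control, 4037 to 4084 FPKM at 10 mM and 4178 to 4259 FPKM at 16 mM, so both doses were below every control. In the second set it was 4154 to 4309 FPKM in control, 4526 to 4604 FPKM at 10 mM and 4247 to 4260 FPKM at 16 mM, so 10 mM was above every control and 16 mM lay within the controls. The direction at 10 mM was thus opposite in the 2 sets. With 2 or 3 libraries a group in a set, these sums were not tested. The ratio of large-subunit to small-subunit FPKM was 2.35 ± 0.04 in control, 2.38 ± 0.04 at 10 mM and 2.36 ± 0.04 at 16 mM (SD, n = 6, 5 and 5). The group took 0.391% of all counts in control, 0.382% at 10 mM and 0.387% at 16 mM. The 10 mM library 1 gave 11647 FPKM and a ratio of 2.9.

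**Figure D1:**
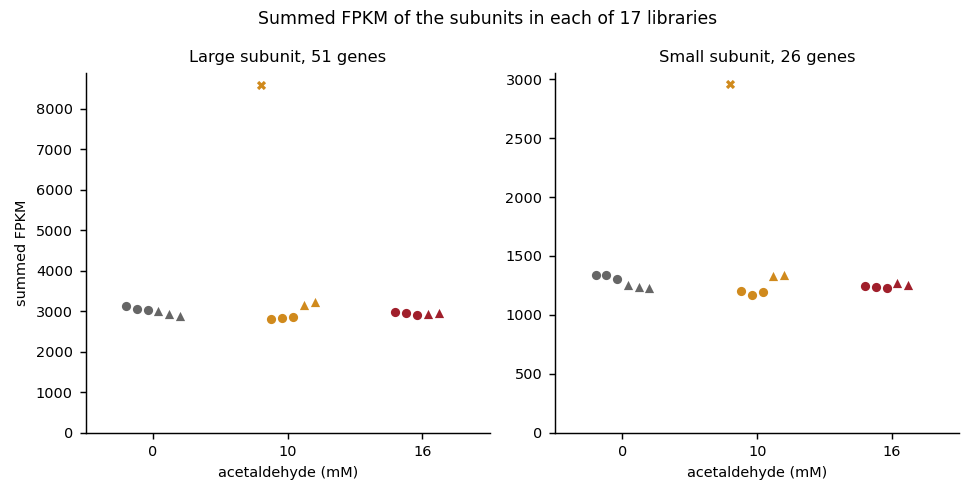
Summed FPKM of the 51 large-subunit genes (left) and the 26 small-subunit genes (right) in each library, by acetaldehyde dose in mM; circles are libraries of the first close set, triangles of the second, and the cross is 10 mM library 1. The 16 libraries other than the cross lie between 2808 and 3216 FPKM for the large subunit and between 1165 and 1340 FPKM for the small subunit. In the first set both doses lie below every control (for the small subunit, controls lie between 1303 and 1335 FPKM, 10 mM libraries between 1165 and 1202 FPKM, and 16 mM libraries between 1224 and 1243 FPKM), and in the second set the 10 mM libraries lie above every control.

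Members differed widely in level. In control, MRPS24, the mitochondrial counterpart of bacterial S3, was highest at 236 ± 8.19 FPKM (SD, n = 6), followed by MRPL41 (166 ± 14), MRPL33 (152 ± 8.31), MRPL12 (142 ± 7.78) and MRPL51 (131 ± 17.7). MRPL41, MRPL33 and MRPL12 overlap their neighbours in this order within their spread. The lowest were MRPL42 (7.18 ± 0.765 FPKM), MRPS33 (7.39 ± 0.453), MRPL50 (7.89 ± 0.454), MRPS30 (10.0 ± 1.3) and MRPS23 (11.0 ± 0.914), and the first 3 of these overlap. MRPS24 fell at 16 mM, by 0.26 ± 0.08 on the log2 scale (SE, edgeR adjusted p = 0.00789), to 194, 194, 167, 217 and 206 FPKM, against 228 to 251 FPKM in control (median 234). The change was -0.39 in the first set and -0.11, not called (adjusted p = 0.109), in the second, and it was not called on sums of close libraries (adjusted p = 0.273). The annotation also holds a readthrough gene over MRPS24, whose reads the counting could share. MRPL33, MRPL41 and MRPL51 did not pass the test at either dose over the 16 libraries, with log2 changes between -0.11 and 0.14. Within the sets, edgeR called MRPL51 higher at 10 mM in both, at 0.18 in each (adjusted p = 0.0235 and 0.00187). MRPL41 was called higher at 10 mM in the second set alone (0.17, adjusted p = 0.0207). Of the lowest 5, MRPL42 and MRPS33 fell at 16 mM, and MRPL50, MRPS30 and MRPS23 rose. The rise of MRPL50 was 0.45 in the second set and 0.13, not called, in the first.

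At 16 mM against control, single members moved in both directions and in equal number. All 78 were tested. By edgeR, 25 were higher, 25 were lower and 28 did not pass an adjusted p of 0.05. Of all 12545 genes tested, 65.9% were called at this dose (33.7% higher, 32.2% lower), so the share of members called, 64.1%, is near the background and is no result about the members. The median log2 change of the members was 0.03, against 0.01 over all genes. Changes were small: 11 members changed by at least 1.5-fold, 6 of them higher and 5 lower, where 27.9% of all genes did. Of the 78 members, 18 were called higher without overlap in FPKM between the 2 groups, where 23.7% of all genes were. Another 16 of the 78 were called lower without overlap, where 22.2% of all genes were. When close libraries were summed, so that each group had 2 values, 9 members were called, 4 higher and 5 lower (25.8% of all genes called). These were MRPS12, MRPL32, MRPL21 and MRPL49, which were higher, and MRPL54, MRPS28, MRPL53, MRPL28 and MRPL11, which were lower. With all 17 libraries in the fit, 5 were called (35.3% of all genes called): MRPL49 and MRPS6 higher, MRPL54, MRPS28 and MRPL42 lower.

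**Figure D2:**
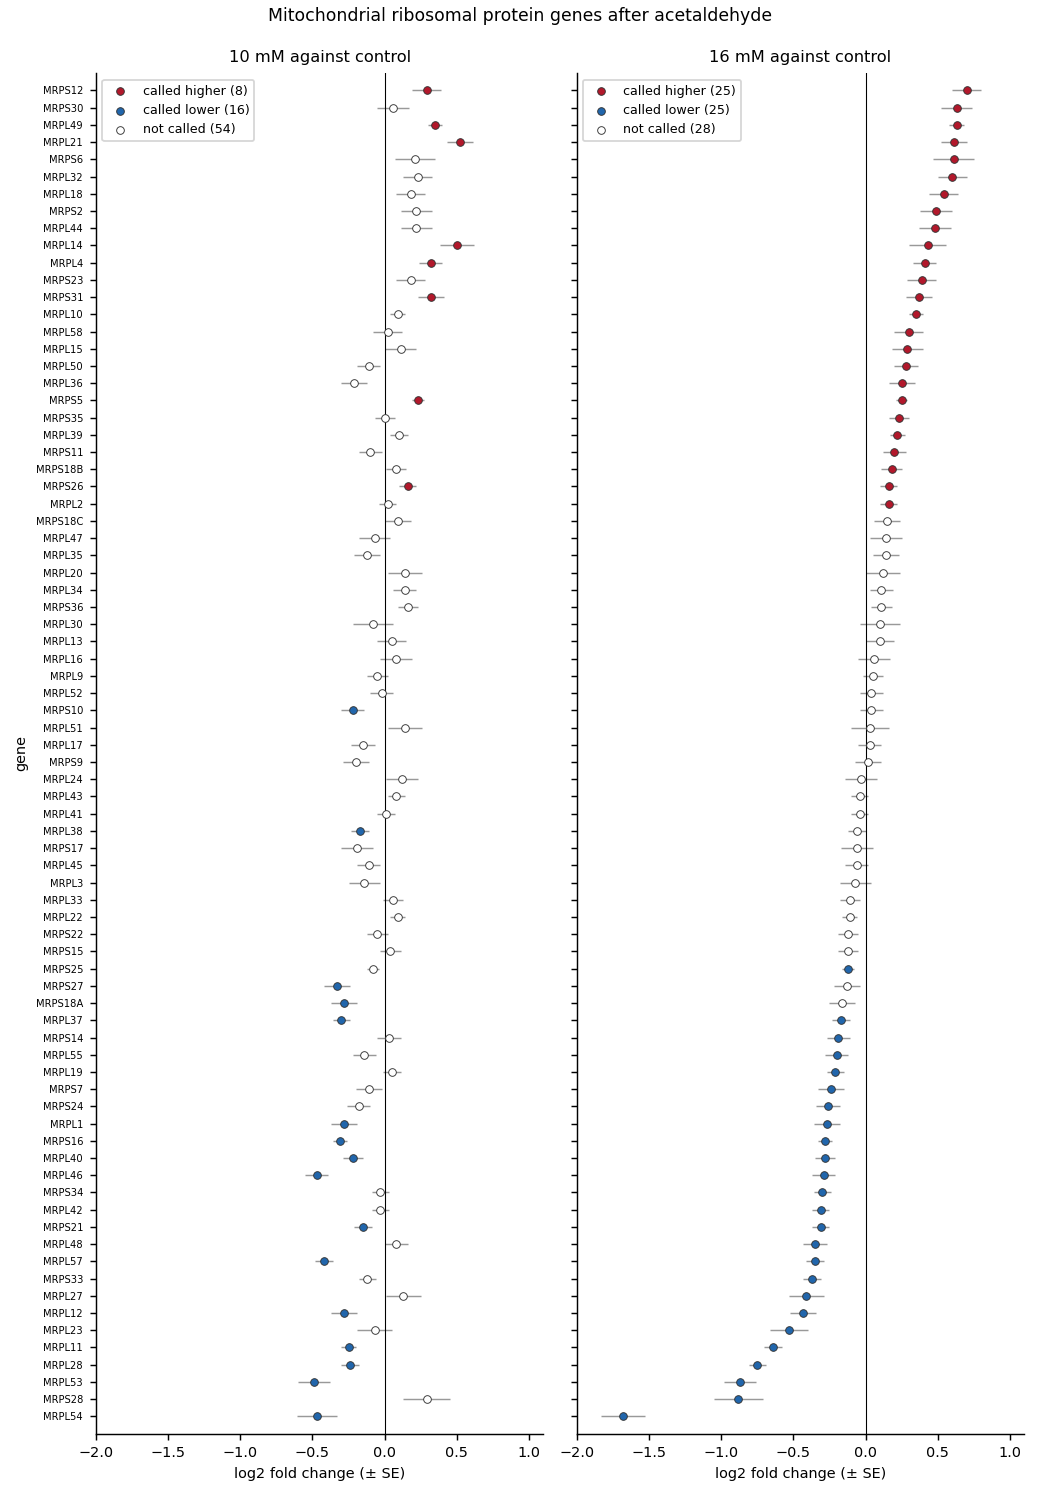
Log2 fold change of each of the 78 genes with its standard error at 10 mM (left) and 16 mM (right) against control, from edgeR on 16 libraries; red points are called higher, blue called lower and white not called, and genes are ordered by the change at 16 mM. At 16 mM changes run from -1.68 for MRPL54 to 0.70 for MRPS12, and at 10 mM from -0.49 for MRPL53 to 0.52 for MRPL21.

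MRPL54, a large-subunit protein that bacteria lack, fell most. It had 31.0, 23.0, 21.5, 14.1 and 15.2 FPKM at 16 mM, against 60.0 to 75.7 FPKM in control (median 65). The groups did not overlap, and the second set was lower than the first at this dose. The log2 change was -1.68 ± 0.15 (SE, adjusted p = 6.08e-08), or 0.313 of the control level. At 10 mM it had 45.1, 56.1, 56.4, 42.7 and 38.1 FPKM and a log2 change of -0.47 ± 0.14 (adjusted p = 0.0119), again with no overlap with control, and the 16 mM level was below the 10 mM level by 1.20 ± 0.16 on the log2 scale (adjusted p = 3.85e-05). In build GRCh38.p13 the table places MRPL54 at chr19:3762682-3768575.

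MRPL53, another large-subunit protein specific to mitochondria (chr2:74469871-74472687), had 39.6, 35.7, 37.5, 45.8 and 49.9 FPKM at 16 mM, against 69.3 to 87.5 FPKM in control (median 72.4). All 16 mM libraries were below all controls, and here the first set was the lower one. The log2 change was -0.87 ± 0.11 (adjusted p = 4.31e-06), and at 10 mM it was -0.49 ± 0.11 (adjusted p = 0.00208), with 53.7, 48.9, 50.4, 52.5 and 61.0 FPKM.

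The 250 bases before the RefSeq start site are shown for MRPL54 and MRPL53, which were among the largest falls at both doses, and for MRPS12, the largest rise at 16 mM, so that their start regions can be compared. Sequences are RefSeq's in build GRCh38.p14, written 5′ to 3′ on the gene's strand (MRPL54 on +, chr19:3762432-3762681; MRPL53 on -, chr2:74472681-74472930; MRPS12 on +, chr19:38930694-38930943). Capitals mark CCGGAAG, the core bound by ETS factors such as GABP, on either strand, and the CCAAT box on either strand. Searches on both strands for letters of NRF1 (GCGCA and GCGC with any 1 base between them), YY1 (AAGATGGCG) and CRE (TGACGTCA) found none in these 3 stretches.
MRPL54: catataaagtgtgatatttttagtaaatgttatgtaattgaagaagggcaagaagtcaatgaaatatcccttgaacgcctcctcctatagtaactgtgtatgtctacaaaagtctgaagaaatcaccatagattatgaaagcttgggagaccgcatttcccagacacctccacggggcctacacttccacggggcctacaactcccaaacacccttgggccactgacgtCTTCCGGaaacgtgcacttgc
MRPL53: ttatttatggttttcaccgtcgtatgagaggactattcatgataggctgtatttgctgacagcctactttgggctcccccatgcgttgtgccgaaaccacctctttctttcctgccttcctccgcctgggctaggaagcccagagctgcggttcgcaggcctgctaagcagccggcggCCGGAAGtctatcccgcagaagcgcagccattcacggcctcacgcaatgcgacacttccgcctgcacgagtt
MRPS12: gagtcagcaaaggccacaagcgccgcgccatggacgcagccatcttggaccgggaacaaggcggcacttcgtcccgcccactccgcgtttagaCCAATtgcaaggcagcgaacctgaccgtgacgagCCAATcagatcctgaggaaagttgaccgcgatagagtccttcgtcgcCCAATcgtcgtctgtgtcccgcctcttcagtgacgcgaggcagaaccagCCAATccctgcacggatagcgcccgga
Each of the MRPL genes holds 1 ETS core and no CCAAT box, and MRPS12 holds 4 CCAAT boxes and no ETS core. Windows of 300 bases (250 before to 50 after the start) were found for 69 of the 78 members and for 27305 genes in all, with the first listed window of each gene used. Of the members' windows, 42% held CCGGAAG against 10.7% of all windows, 18.8% held AAGATGGCG against 1.85%, 11.6% held the NRF1 letters against 6.28%, and 29% held CCAAT against 35.7%. Letters of a heat shock element (GAANNTTC) were in 8.7% of the members' windows and 6.87% of all, and TGACGTCA in 0 of 69 members' windows and 1.98% of all. CCGGAAG was in 5 of 21 windows of members called higher at 16 mM, 10 of 23 of those called lower and 14 of 25 of those not called, and CCAAT in 7, 3 and 10. These counts describe letters in a window and no binding.

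The other falls at 16 mM in the large subunit were led by members with a bacterial counterpart. MRPL28 (chr16:366969-370540) had 62.2, 54.8, 57.0, 49.7 and 55.6 FPKM at 16 mM, against 91.7 to 100.2 FPKM in control (median 93.7), with a log2 change of -0.75 ± 0.06 (adjusted p = 1.33e-08). MRPL11, a protein at the base of the stalk where translation factors bind, had 28.3, 28.3, 25.2, 24.7 and 25.9 FPKM at 16 mM, against 39.7 to 43.8 FPKM in control (median 41.4; log2 change -0.64 ± 0.06, adjusted p = 3.28e-08). In both genes the groups lay far apart, and the 2 sets gave nearly the same change (MRPL28 -0.74 and -0.78, MRPL11 -0.64 and -0.66). MRPL12, the stalk protein itself, which also binds the mitochondrial RNA polymerase, had 117, 108, 103, 94.8 and 101 FPKM at 16 mM, against 134 to 156 FPKM in control (median 141; log2 change -0.43 ± 0.09, adjusted p = 0.000569). MRPL23, which lines the exit of the peptide tunnel, had 50.01, 48.5, 44.0, 61.6 and 51.5 FPKM at 16 mM, against 53.6 to 86.5 FPKM in control (median 74.1; log2 change -0.53 ± 0.13, adjusted p = 0.00143). Its groups overlapped, since control 2 and 3 were at 53.6 and 55.7 FPKM. MRPL27, near the catalytic centre in bacterial ribosomes, had 82.0, 78.5, 86.9, 51.1 and 50.5 FPKM at 16 mM, against 83.9 to 97.2 FPKM in control (median 95; log2 change -0.41 ± 0.12, adjusted p = 0.00838). The fall of MRPL27 was mostly in the second set, at -0.84 there and -0.16 in the first.

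In the small subunit MRPS28, the counterpart of bacterial S1, fell most. It had 15.2, 14.0, 13.7, 8.92 and 6.01 FPKM at 16 mM, against 17.2 to 24.4 FPKM in control (median 21.7). The groups did not overlap, and 16 mM libraries 4 and 5 were the lowest. The log2 change was -0.88 ± 0.17 (adjusted p = 0.000181), and it was -1.61 in the second set and -0.44 in the first. At 10 mM it had 27.0, 24.2, 27.3, 26.3 and 24.8 FPKM and a log2 change of 0.29 ± 0.16 (adjusted p = 0.149), and the 16 mM level was below the 10 mM level by 1.17 ± 0.17 on the log2 scale (adjusted p = 9.3e-05). MRPS33, MRPS21 and MRPS16 also fell at 16 mM without overlap, by 0.37 ± 0.06, 0.31 ± 0.06 and 0.28 ± 0.05 on the log2 scale. The annotation lists 8 pseudogenes under the name of MRPS21 and 3 each for MRPS16 and MRPS33, with which reads could be shared.

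The largest rise was that of MRPS12, the counterpart of bacterial S12 at the decoding centre. It had 43.0, 44.6, 39.8, 44.6 and 43.3 FPKM at 16 mM, against 25.5 to 28.4 FPKM in control (median 27.1). The groups were far apart, and the log2 change was 0.70 ± 0.10 (adjusted p = 1.13e-05), or 1.62-fold. MRPS6, also of bacterial descent, had 49.7, 50.5, 58.4, 73.8 and 68.5 FPKM at 16 mM, against 32.4 to 48.3 FPKM in control (median 40.6; log2 change 0.61 ± 0.14, adjusted p = 0.001). Its rise came from the second set, with a log2 change of 1.12 there and 0.16, not called, in the first. SLC5A3, a transporter gene, lies inside MRPS6 on the same strand, so reads of the 2 genes may be mixed. MRPS2 had 47.5, 54.6, 48.9, 55.4 and 61.1 FPKM at 16 mM, against 36.8 to 42.4 FPKM in control (median 38.7; log2 change 0.49 ± 0.11, adjusted p = 0.000885).

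In the large subunit the rises at 16 mM were led by MRPS30 and MRPL49, both specific to mitochondria. MRPL49 (chr11:65122183-65127371) had 67.6, 72.1, 72.1, 73.3 and 76.9 FPKM at 16 mM, against 43.3 to 49.8 FPKM in control (median 48.1; log2 change 0.63 ± 0.05, adjusted p = 2.77e-08). MRPS30 had 14.0, 13.9, 14.4, 16.9 and 16.5 FPKM at 16 mM, against 8.45 to 11.3 FPKM in control (median 10.1; log2 change 0.63 ± 0.11, adjusted p = 7.44e-05), and the change was 0.95 in the second set and 0.34 in the first. Neither gene overlapped between the groups, and MRPL49 was the more even of the 2 across libraries. MRPL21 (chr11:68891276-68903835) had 78.4, 84.6, 79.5, 77.0 and 78.9 FPKM at 16 mM, against 48.0 to 59.9 FPKM in control (median 52.1; log2 change 0.61 ± 0.09, adjusted p = 8.77e-06). MRPL32, whose precursor is cut by the m-AAA protease before assembly in yeast and mouse, had 122, 136, 125, 152 and 137 FPKM at 16 mM, against 74.2 to 95.8 FPKM in control (median 93.4; log2 change 0.60 ± 0.10, adjusted p = 4e-05). MRPL18, counterpart of a bacterial protein that binds the 5S RNA, had 101, 108, 98.5, 124 and 126 FPKM at 16 mM, against 73.0 to 81.5 FPKM in control (median 77.9; log2 change 0.54 ± 0.10, adjusted p = 0.000147). In these 3 genes, too, every 16 mM library was above every control. MRPL44, which has a ribonuclease III fold, and MRPL4, a tunnel protein, rose by 0.48 ± 0.11 and 0.41 ± 0.08 on the log2 scale.

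**Figure D3:**
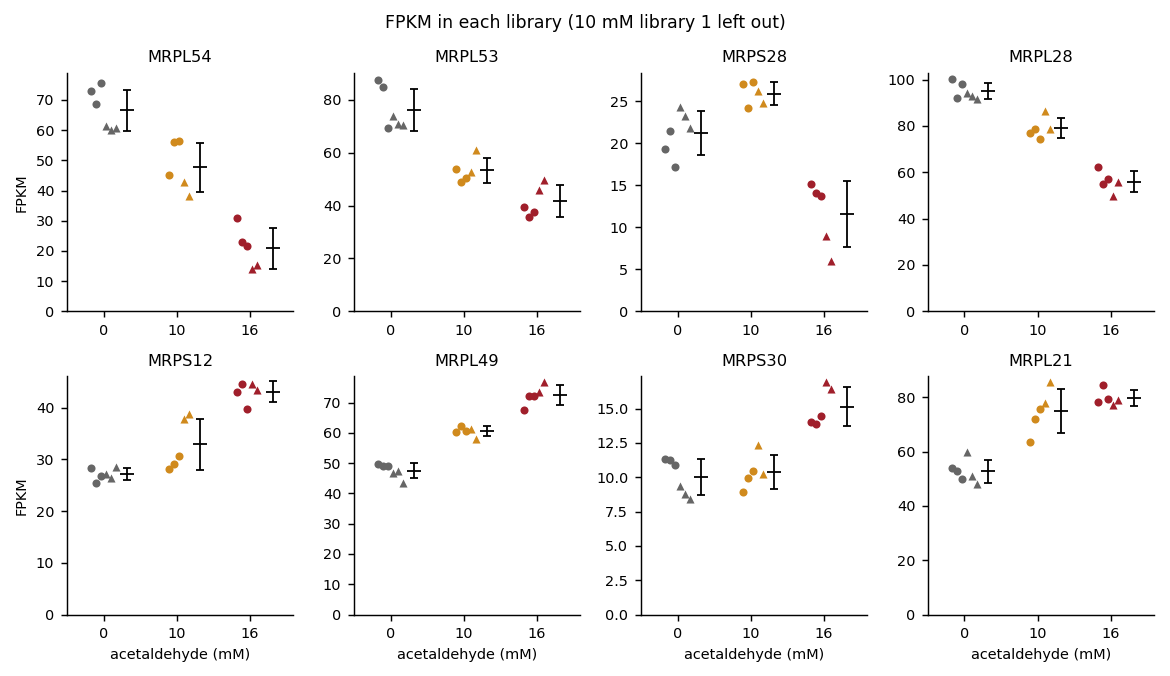
FPKM of 4 genes with the largest falls (top) and 4 with large rises (bottom) at 16 mM, in each library by acetaldehyde dose in mM; circles are the first close set, triangles the second, and the bar gives the mean ± SD of the libraries shown, without 10 mM library 1. In all 8 genes the 16 mM libraries do not overlap with control, for MRPL54 at 14.1 to 31.0 against 60.0 to 75.7 FPKM.

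By class, the share of members called at 16 mM was 60.8% in the large and 73.1% in the small subunit, where 65.9% of all genes were called (33.7% higher, 32.2% lower). Of 51 large-subunit genes, 15 were higher and 16 lower, and of 26 small-subunit genes, 10 were higher and 9 lower. Of the 46 members with a bacterial counterpart, 14 rose and 14 fell, with a median log2 change of 0.05. Of the 31 specific to mitochondria, 11 rose and 11 fell, with a median of -0.06. Across the 78 members, Spearman's rho between log2 change and effective length was 0.13, and between log2 change and control FPKM -0.17, as descriptions over genes that share the same libraries.

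The members called MRPS18 are 3 paralogs of bacterial S18 that occupy different places, A in the large subunit and B and C in the small. MRPS18A had 39.7, 36.6, 34.9, 37.2 and 36.9 FPKM at 16 mM, against 32.9 to 52.7 FPKM in control (median 41.1), which did not pass the test (log2 change -0.16 ± 0.09, adjusted p = 0.153). MRPS18B had 64.9, 59.5, 62.1, 52.1 and 49.2 FPKM at 16 mM, against 44.9 to 64.1 FPKM in control (median 49.8; log2 change 0.18 ± 0.07, adjusted p = 0.0395). That call was lost when any 1 of 7 libraries (control 1, 4, 5 or 6, or 16 mM library 1, 2 or 3) was left out, with adjusted p up to 0.101. MRPS18C had 32, 32.7, 34.5, 37.9 and 35.8 FPKM at 16 mM, against 28.9 to 35.7 FPKM in control (median 31.0; log2 change 0.15 ± 0.09, adjusted p = 0.157). All 3 overlapped between the groups.

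At 10 mM fewer members passed. By edgeR on 16 libraries, 8 were higher, 16 were lower and 54 did not pass, a share of 30.8% where 45.2% of all genes were called (22.4% higher, 22.8% lower). The median log2 change of the members was 0.01 and that of all genes 0.00. None of the 78 changed by 1.5-fold, where 11.8% of all genes were called with a change of at least that size. Of the 78 members, 6 were called higher without overlap in FPKM, where 14.2% of all genes were. Another 9 of the 78 were called lower without overlap, where 13.7% of all genes were. In the fit on sums of close libraries edgeR called 0 members (1.83% of all genes), with 5 at an unadjusted p under 0.05, where the fit on single libraries had 29. With all 17 libraries it called 3 members, all higher (18.7% of all genes called, 9.41% higher), MRPL49, MRPL14 and MRPL21, and the members' median was 0.68. In the fit on 16 libraries, no member was called in opposite directions at the 2 doses. Within single sets some were. In the first set these included MRPS28 (0.45 at 10 mM and -0.44 at 16 mM) and MRPL23 (0.20 and -0.45). In the second set they included MRPL27 (0.27 and -0.84).

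The rises at 10 mM were led by MRPL21 and MRPL14, large-subunit proteins of bacterial descent. MRPL21 had 63.7, 71.8, 75.7, 77.8 and 85.8 FPKM at 10 mM, against 48.0 to 59.9 FPKM in control (log2 change 0.52 ± 0.09, adjusted p = 0.000119). MRPL14, the docking site of the assembly factor MALSU1, had 67.5, 69.5, 73.6, 77.2 and 79.3 FPKM at 10 mM, against 37.6 to 62.3 FPKM in control (median 53.3; log2 change 0.50 ± 0.12, adjusted p = 0.00362), and it was also higher at 16 mM (0.43 ± 0.13, with 0.74 in the first set and 0.16 in the second). Its controls split, at 37.6 to 47.5 FPKM in the first set and 59.0 to 62.3 in the second, and the change at 10 mM was 0.72 in the first and 0.38 in the second set. MRPL49 (0.35 ± 0.05), MRPS31 (0.32 ± 0.09), MRPL4 (0.32 ± 0.08) and MRPS5 (0.23 ± 0.04) were higher at 10 mM on the log2 scale without overlap. MRPS12 had 28.2, 29.1, 30.8, 37.8 and 38.8 FPKM at 10 mM, against 25.5 to 28.4 FPKM in control (log2 change 0.29 ± 0.10, adjusted p = 0.029), and MRPS26 a log2 change of 0.16 ± 0.06 at both doses. The 10 mM calls of MRPS12 and MRPS26 were lost when 1 library was left out: for MRPS12 control 2 or 3 or 10 mM library 5 or 6 (adjusted p up to 0.101), for MRPS26 control 6 or 10 mM library 5 or 6 (up to 0.0695). The 16 mM call of MRPS26 was lost without 16 mM library 2 (adjusted p = 0.0501).

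Among the falls at 10 mM, 8 stood at a log2 change of -0.28 or below beside MRPL53 and MRPL54. MRPL46, specific to mitochondria, had 22.5, 22.6, 23.4, 25.0 and 22.5 FPKM at 10 mM, against 25.5 to 38.0 FPKM in control (median 32.7; log2 change -0.47 ± 0.08, adjusted p = 0.000239). MRPL57 had 26.2, 31.1, 27.8, 28.3 and 24.9 FPKM at 10 mM, against 33.2 to 41.7 FPKM in control (median 35.9; log2 change -0.42 ± 0.06, adjusted p = 2.7e-05), and the annotation lists 5 pseudogenes under its name. In both, no 10 mM library reached the lowest control. MRPS27, a protein with pentatricopeptide repeats, fell by 0.33 ± 0.09, MRPS16 by 0.31 ± 0.05 and MRPL37 by 0.30 ± 0.06 on the log2 scale, also without overlap. MRPL12 (-0.28 ± 0.09), MRPL1 (-0.28 ± 0.09) and MRPS18A (-0.28 ± 0.09) were called with overlapping groups. In the second set none of these 3 was called (-0.02, -0.07 and 0.01), while in the first they were at -0.48, -0.44 and -0.53. MRPL12 had 108, 99.7, 102, 136 and 136 FPKM at 10 mM, against 134 to 156 FPKM in control, so that 10 mM libraries 5 and 6 were within the controls. The calls of MRPL12 and MRPL1 were lost without 10 mM library 2, 3 or 4 (adjusted p up to 0.065 and 0.0613), and that of MRPS18A without control 2 or 3 or 10 mM library 3 or 4 (up to 0.0611). Smaller falls were called for MRPL11, MRPL28, MRPL40, MRPS10, MRPL38 and MRPS21, between -0.25 and -0.15. Those of MRPL40, MRPS10, MRPL38 and MRPS21 were lost when 1 library was left out, for MRPL40 10 mM library 2, for MRPL38 any of control 1 to 3 or 10 mM libraries 2 to 4, for MRPS10 these or control 6, and for MRPS21 any of 11 libraries (adjusted p up to 0.118).

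Between the doses, 14 members were higher at 16 mM than at 10 mM and 15 were lower (44.1% of all genes called, 23.2% higher and 20.9% lower). The largest differences were the falls of MRPL54 and MRPS28 given above, followed by MRPS30, which was higher at 16 mM by 0.56 ± 0.11 on the log2 scale (adjusted p = 0.000942), and MRPL27 and MRPL28, lower by 0.53 ± 0.13 and 0.51 ± 0.06. For MRPL27 the difference was mostly in the second set, at -1.11 there and -0.19 in the first. For MRPL28 it was -0.62 and -0.44. On sums of close libraries edgeR called 0 members between the doses (0% of all genes), with 7 at an unadjusted p under 0.05.

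Among members that did not pass, the largest changes at 16 mM were those of MRPS18A, MRPS18C, MRPL47 (0.14 ± 0.11) and MRPL35 (0.14 ± 0.09). At 10 mM they were those of MRPS28, MRPL32 (0.23 ± 0.10), MRPL44 (0.22 ± 0.11) and MRPS2 (0.22 ± 0.11). For MRPL47 the 2 sets of libraries disagreed: at 16 mM its log2 change was -0.14 in the first and 0.45 in the second set, and at 10 mM -0.41 and 0.32, each of them called.

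The balance of rises and falls differed between the sets. At 10 mM, 12 members were higher and 36 lower in the first set (median log2 change -0.12), where 31.7% and 32% of all genes were, while 35 were higher and 10 lower in the second (median 0.11), where 30.5% and 31.1% of all genes were. The medians over all genes were -0.01 and 0.00. At 16 mM, 18 were higher and 36 lower in the first set (median -0.09; 35.5% and 36.4% of all genes), and 35 higher and 23 lower in the second (median 0.11; 38.6% and 39.5% of all genes). Since the sums were 4381 to 4505 FPKM in control 1 to 3 and 4154 to 4309 FPKM in control 4 to 6, the controls of the sets differed in level as well. Of the 50 members called at 16 mM over both sets, 34 were called the same way in each set, 6 in the first alone (MRPL37, MRPL39, MRPL40, MRPL46, MRPL55 and MRPS24) and 10 in the second alone (MRPL2, MRPL15, MRPL36, MRPL50, MRPS6, MRPS11, MRPS14, MRPS18B, MRPS26 and MRPS35). Of the 24 called at 10 mM, 15 were called the same way in each set, 6 in the first alone (MRPL1, MRPL12, MRPL38, MRPL40, MRPS10 and MRPS18A), 2 in the second alone (MRPS12 and MRPS26) and 1 in neither (MRPS21). At 16 mM, 15 members were called higher and 20 lower in both sets, and 5 were called in opposite directions: MRPL47, MRPS10, MRPL52 and MRPS9 lower in the first and higher in the second set, MRPL16 the reverse. At 10 mM, 9 were higher and 9 lower in both sets and 8 were called in opposite directions. For calls compared across the sets the share over all genes is not given. These counts of agreement and opposition can therefore not be read as particular to the members. Members lower in both sets at both doses included MRPL54, MRPL53, MRPL28, MRPL11, MRPL57, MRPS16 and MRPS27, and members higher in both sets at both doses included MRPL49, MRPL21, MRPL14, MRPL32, MRPL44, MRPL4, MRPS31 and MRPS5. A fit with the set as a term called 29 higher and 27 lower at 16 mM (37.5% and 36.5% of all genes), and 15 and 20 at 10 mM (28.6% and 28.9%). What the sets stand for is not given in the labels, and their part in the results was not tested.

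**Figure D4:**
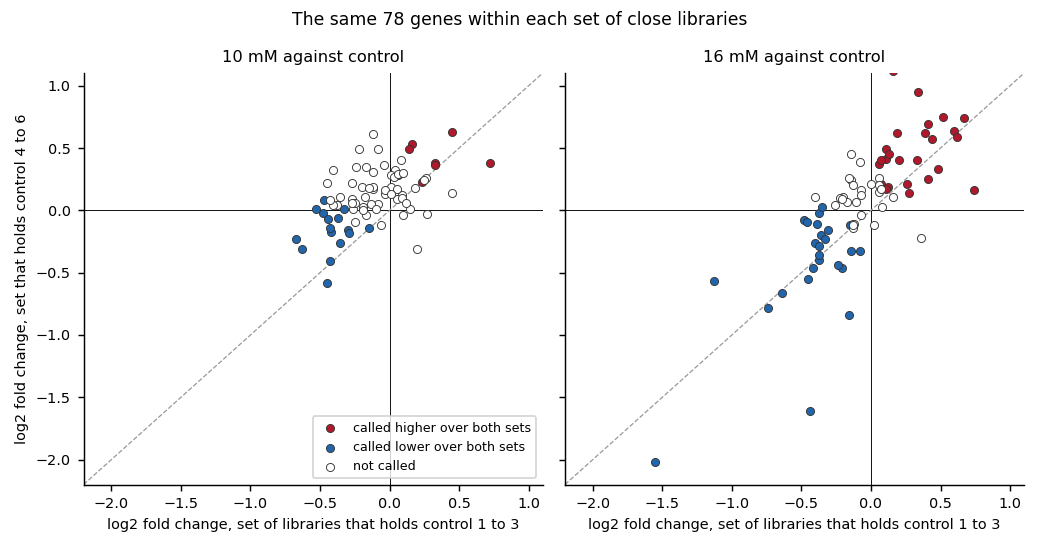
Log2 fold change against control of each of the 78 genes within the first close set of libraries (horizontal) and within the second (vertical), at 10 mM (left) and 16 mM (right); the dashed line marks equal values, and colours give the call over both sets. Most points lie above the line, with medians of -0.12 and 0.11 at 10 mM and -0.09 and 0.11 at 16 mM.

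In 10 mM library 1 most members were raised. On TMM-scaled counts per library, 77 of 78 members were above every one of the other 16 libraries, where 35.8% of all genes tested were. By FPKM, 72 members were above every other library, while MRPL34 (36.91 FPKM) and MRPL16 (44.46 FPKM) were below every other library. The TMM factor of this library, fitted with all 17, was 0.5587. The members' median log2 ratio over the mean of the other 10 mM libraries was 2.25 (range 0.20 to 3.27), against -0.06 over 11619 genes. The largest ratios were those of MRPL12 (3.27, with 587 FPKM), MRPL33 (3.23, with 642 FPKM) and MRPS18A (3.05, with 150 FPKM). MRPL34 (0.20), MRPL42 (0.49) and MRPL16 (0.54) had the smallest. Members are short: their median effective length, recovered from deposited counts and FPKM, was 910 bases, against 2809 for genes of at least 1 FPKM in control. The ratio fell with length, with Spearman's rho of -0.47 over the 78 members and -0.67 over all 11619 genes, as descriptions within a single library. Under 500 bases the medians were 2.64 for 13 members and 2.40 for all genes. From 1000 to 2000 bases they were 1.96 for 24 members and 0.92 for all genes, and over 4000 bases 1.32 for 5 members and -1.13 for all genes. With this library in the fit, the direction of 15 of the 24 members called at 10 mM turned round, all of them falls. MRPL54, for example, gave -0.47 without it and 0.65 with it (adjusted p = 0.358). In the authors' deposited table, which holds a log2 change of 0.72 for MRPL54 at 10 mM, 3 members were higher and 0 lower at 10 mM (q under 0.05; 15.4% of its genes), and 22 higher and 24 lower at 16 mM (50.4% of its genes).

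**Figure D5:**
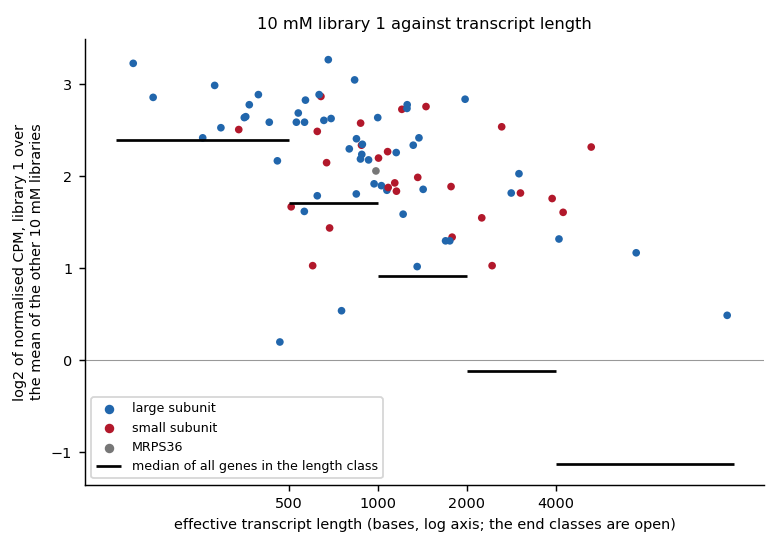
Log2 ratio of TMM-scaled counts in 10 mM library 1 over the mean of the other 10 mM libraries against effective transcript length in bases (log axis), for 51 large-subunit genes (blue), 26 small-subunit genes (red) and MRPS36 (grey); black lines are medians of all genes in 5 length classes. All 78 points are above 0, and the black lines run from 2.40 below 500 bases to -1.13 above 4000 bases.

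Many members share a start region or bases with another gene. In GENCODE v29, 27 pairs of a member and a coding gene on the other strand have 5′ ends within 1000 bases, and 26 of these partners were tested. At 16 mM both genes of a pair were called in 10 pairs, 5 in the same direction and 5 in opposite directions. Of the 26 partners 15 were called, where 65.9% of all genes were, so the counts say nothing particular of shared start regions. MRPL18 and TCP1, a subunit of the cytosolic chaperonin, both rose (0.54 and 1.23 ± 0.20), as did MRPL21 and the helicase gene IGHMBP2 (0.61 and 0.82 ± 0.06). MRPS12 rose by 0.70 on the log2 scale while SARS2, the mitochondrial seryl-tRNA synthetase, fell by 1.56 ± 0.17 (3.54 ± 1.44 FPKM at 16 mM, against 10.5 ± 0.743 FPKM in control). MRPL46 and MRPS11 are partners of each other, and MRPL46 was lower (-0.29) and MRPS11 higher (0.20). MRPL43 did not pass (-0.04) beside TWNK, the mitochondrial DNA helicase, which rose by 1.09 ± 0.12. Since 38 members overlap another coding gene and no source used here gives the strand of the reads, reads of such pairs cannot be told apart. These members include MRPL53 (with CCDC142), MRPL28 (with TMEM8A) and MRPL49 (with FAU and SYVN1).

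Genes that build or serve the mitochondrial ribosome were counted from lists. Over 6 lists of related genes with 94 tested members, 40 were higher and 24 lower at 16 mM, and 12 and 23 at 10 mM, to be read against the 65.9% and 45.2% above. Of 5 ribosome subunits under other symbols, GADD45GIP1 (0.32 ± 0.08) and PTCD3 (0.16 ± 0.05) rose at 16 mM and AURKAIP1 fell (-0.33 ± 0.09). Of 29 genes for assembly of the ribosome and modification of its RNA, 11 rose and 9 fell at 16 mM (median 0.06). The RNA helicase DHX30 rose by 0.79 ± 0.05 to 54.6 ± 1.17 FPKM, against 32.4 ± 1.08 FPKM in control (adjusted p = 1.35e-09), and MPV17L2, an assembly factor, by 0.48 ± 0.06. RBFA and TFB1M, which act on the small-subunit RNA, fell by 0.48 ± 0.06 and 0.58 ± 0.07 on the log2 scale. At 10 mM, 2 of this list rose (DHX30, 0.47 ± 0.05, and MPV17L2, 0.32 ± 0.06) and 8 fell.

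Of 16 translation factors and related proteins, 3 rose and 5 fell at 16 mM (median -0.05). MTFMT, which formylates the initiator tRNA, rose by 0.70 ± 0.05, the release factor MTRF1L by 0.62 ± 0.09 and TACO1, an activator of COX1 translation, by 0.45 ± 0.08, and GUF1 fell by 0.47 ± 0.05. The elongation factor TUFM had 145 ± 7.62 FPKM at 16 mM, against 155 ± 13.6 FPKM in control, which did not pass. Of 19 genes of mitochondrial transcription and RNA processing, 13 rose and 3 fell at 16 mM, with a median log2 change of 0.35 (0.01 over all genes), and 5 rose and 3 fell at 10 mM (median 0.12). FASTKD5, needed to process some mitochondrial transcripts, rose by 1.31 ± 0.15 to 33.9 ± 7.16 FPKM, against 13.9 ± 1.11 FPKM in control. TBRG4 rose by 0.98 ± 0.08, SUPV3L1, a subunit of the RNA degradation complex, by 0.61 ± 0.06, and GRSF1 by 0.44 ± 0.06.

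Of 11 regulators of nuclear genes for mitochondria, 4 rose and 3 fell at 16 mM, and 1 and 3 at 10 mM. ESRRA rose by 0.47 ± 0.06, PPRC1 by 0.57 ± 0.08 and YY1 by 0.37 ± 0.06 on the log2 scale, and the coactivator PPARGC1A fell by 1.94 ± 0.39, to 0.73 ± 0.499 FPKM at 16 mM, against 2.82 ± 1.02 FPKM in control. NRF1 had 8.74 ± 0.737 FPKM at 16 mM, against 11.1 ± 1.69 FPKM in control (log2 change -0.32 ± 0.08, adjusted p = 0.00288). Of 14 mitochondrial chaperones and proteases, 7 rose and 3 fell at 16 mM, and 2 and 4 at 10 mM. CLPX, the unfoldase of the ClpXP protease, rose by 0.34 ± 0.06 and DNAJA3 by 0.29 ± 0.06, and HSPE1, the cochaperonin, by 1.23 ± 0.26 to 498 ± 121 FPKM, against 212 ± 77.2 FPKM in control. Proteins encoded in the mitochondrial genome, which this ribosome makes, were not analysed here.

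Beside the members, the cytosolic ribosome and the nuclear genes of oxidative phosphorylation give a measure of other large assemblies in the same libraries. Of 85 cytosolic ribosomal protein genes tested, 2 were higher and 26 lower at 16 mM, with a median log2 change of -0.13, where 33.7% of all genes were higher and 32.2% lower. These counts depended on the libraries: within the first set 5 were higher and 71 lower (median -0.26), within the second 18 and 21 (median -0.01), on sums of close libraries 1 and 1, and with all 17 libraries 1 and 1. At 10 mM 3 were higher and 8 lower (median -0.06; 22.4% and 22.8% of all genes), with 7 and 44 in the first set, 31 and 13 in the second, and 0 and 1 on sums. Of 78 oxidative phosphorylation genes tested, 6 were higher and 24 lower at 16 mM (median -0.07), and 18 higher and 6 lower at 10 mM (median 0.07), to be read against the same shares of all genes. Within the first set the counts were 20 and 34 at 16 mM and 36 and 17 at 10 mM, and within the second 16 and 28 at 16 mM and 29 and 6 at 10 mM. On sums of close libraries edgeR called 0 higher and 6 lower at 16 mM (10 at an unadjusted p under 0.05) and 0 at 10 mM (6 at an unadjusted p under 0.05). With all 17 libraries the counts were 0 and 1 at 16 mM and 7 and 1 at 10 mM. The difference between the lists was not tested.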

How the data were processed

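Per the labels' protocols, messenger RNA was enriched with oligo(dT) beads, fragmented and reverse transcribed from random primers. The submitters' processing notes name HISAT, Bowtie2 2.3.4.3, RSEM 1.3.1, DESeq2 1.4.5 and build GRCh38.p13 without their roles. The deposited read counts, so named per the file headers, are estimated counts per gene: 13.1% of the values are not whole. The authors' deposited FPKM values, per the file headers, are scaled for length and depth, and are the levels given. Deposited TPM values served as a check of the table, with 0 per-sample columns left over. The authors' log2 fold changes, p-values and q-values in the deposited table are used only where that table is named.

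Rounded counts entered edgeR 4.0.16 under R 4.3.3 (TMM, filterByExpr, glmQLFit and glmQLFTest) in 1 fit over 16 libraries (13 residual degrees of freedom, 12545 genes), without 10 mM library 1. Tests were two-sided, with Benjamini-Hochberg adjustment over all genes and a threshold of 0.05. Changes are log2 estimates ± SE, the SE being the change divided by the square root of F. Recovery was looked at on simulated data with 50 genes per fold among 12545. For genes changed 1.25-fold it was 32% at 16 mM and 46% at 10 mM. It was 80% and 78% for genes changed 1.5-fold, and 88% and 96% for those changed 2-fold. The members' median size of change was 0.23 on the log2 scale at 16 mM and 0.14 at 10 mM, so members not called may still have changed. The simulated data gave 154 calls at 16 mM and 165 at 10 mM, where the real data gave 8271 and 5670. Recovery in the real fit may therefore differ. Every member had at least 5 FPKM in every library of the fit. Samples were grouped by their titles. The main fit did not pair libraries by replicate number. Related genes, cytosolic ribosomal proteins and oxidative phosphorylation genes were counted from lists of symbols in the same fits.

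Members, lists and tests were chosen with earlier results of these data known. Members were named by a rule: per dose up to 8 of the largest called rises and falls, the 4 largest changes not called, the 5 highest and 5 lowest in control, the MRPS18 genes, MRPL12, members whose call turned round with all 17 libraries, and the called members of related lists with the smallest p. Genes outside it (neighbours, MRPL52, MRPS9, MRPL16, MRPL34, MRPS11, MRPL43, members named only for a call in 1 set, and some list genes) were chosen after their values were seen. Coordinates are the table's. Its strand column was not used, and 5 members placed on scaffolds have none. Promoter windows are RefSeq's, GRCh38.p14, matched by symbol. Alternatives were the replicate block, DESeq2 1.42.0 (Wald test, size factors), limma 3.58.1 on log2(FPKM + 1) and log2(FPKM + 0.1), no filter, total counts, only the groups compared, single sets of libraries, sums of close libraries, all 17 libraries and each library left out. The split by close libraries of 10 mM and 16 mM, and the fits within or with the set, were added after the data were seen.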

Additional observations from a re-analysis of the deposited data

Results flagged for a closer look

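MRPS18C at 10 mM had 1 library apart: library 6 was at 38.9 FPKM and libraries 2 to 5 at 31.5 to 33.1 FPKM, so the gap took 0.782 of the range. It was 1 flag among 135 groups looked at, which share the same libraries, and how many chance alone would flag was not tested. The summed FPKM of the members at 10 mM stood apart in library 1, with a gap of 0.925 of the range (11647 FPKM against 4037 to 4604 FPKM), and 70 of the 78 members taken singly did so too. In that library, which the tests leave out, 77 members were above every other library on TMM-scaled counts per library.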

How the results depend on the processing

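At 16 mM against control, 50 members were called. The count was 45 to 50 with the DESeq2 Wald test, DESeq2 size factors, total counts, limma, no filter or only the groups compared, 39 to 58 in the splits by close libraries, and 42 to 51 when 1 library was left out. It was 5 with all 17 libraries and 9 on sums of close libraries. At 10 mM the count of 24 became 3 with all 17 libraries, 0 on sums, 48 in the first set and 45 in the second, and 18 to 25 with 1 library left out. With 10 mM libraries 2 to 4 alone it split into 4 higher and 25 lower, and with libraries 5 and 6 alone into 21 higher and 4 lower. For these splits the share of all genes called is not given, so the counts cannot be read as particular to the members. Between the doses, 29 became 5 with all 17 libraries, 0 on sums, 18 with only 10 mM libraries 5 and 6, 46 in the first set, and 22 to 33 with 1 library left out. Of the related lists, 64 calls at 16 mM became 24 with all 17 libraries and 15 on sums (60 to 64 with 1 left out), and 35 at 10 mM became 13 with all 17, 0 on sums, 59 in the first set and 54 in the second (28 to 37 with 1 left out). Why the counts changed was not tested for any setting, also not for sums, which leave fewer samples. Where no share of all genes called is given above for a setting, a change in count cannot be set apart from a change over all genes.

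Directions at 10 mM turned round with all 17 libraries for MRPL1 (0.23), MRPL11 (0.71), MRPL12 (1.01), MRPL28 (0.53), MRPL37 (0.41), MRPL38 (0.37), MRPL40 (0.65), MRPL46 (0.43), MRPL53 (0.56), MRPL54 (0.65), MRPL57 (0.25), MRPS10 (0.31), MRPS16 (0.09), MRPS18A (0.87) and MRPS21 (0.53). Among members named by the rule given above, directions with a call in either fit also turned within the sets. In the first set they turned for MRPL23 at 10 mM (0.20) and for MRPL47 (-0.14) and MRPS10 (-0.14) at 16 mM. In the second set they turned for MRPL37 at 16 mM (0.03) and at 10 mM for MRPL38 (0.01), MRPL47 (0.32), MRPS10 (0.08) and MRPS18A (0.01). Members outside that rule turned as well, such as MRPL15 at 10 mM (0.11 over both sets, -0.22 in the first set).

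Deviations of same-numbered libraries from their group means correlated from -0.37 to 0.455. The pairs of 10 mM library 4 with control 4 (-0.259) and with 16 mM library 4 (-0.37) join libraries of different close sets. The other pairs lie within a set, at 0.205 to 0.455, apart from control 1 with 16 mM library 1 (-0.0403). Pairing by number and shared sets were thus not told apart. With the replicate block edgeR called 48 members at 16 mM and 23 at 10 mM, 31 when the doses were compared, and 64 and 32 members of the related lists at 16 and 10 mM.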
